A study of Mus musculus with 2 samples.

Results

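The imprinted growth regulators are genes that are read mainly from the copy inherited from 1 parent and that set how fast embryonic and placental tissue grows. The list names 10 genes, Dlk1, Phlda2, Impact, Cdkn1c, Plagl1, Igf2, Igf2r, Peg3, Mest and Grb10, of which 9 had a probe on the arrays. They were found by the RefSeq accession of each gene probe, without its version, and stand beside 10149 genes that could be named on the arrays in all. Together they had 10 of the 21052 gene probes, because Mest had 2. Grb10 had no probe under this rule and is not analysed here. The rule picks probes by gene name and uses no measured value, though the names were proposed with earlier results of these data known.

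RNA was measured on 2 two-colour oligonucleotide arrays, which form 1 group (siKlf4 ES cells, n = 2). EB5 mouse embryonic stem (ES) cells, kept on gelatin without feeder cells, were transfected with Klf4 siRNA and the plasmid pCAGEGFP-IP, grown for 24 h, and then selected in puromycin for another 24 h. Their RNA carried Cy3, and Universal Mouse Reference RNA, a pool from 11 cell lines of many tissues, carried Cy5 on both arrays. The labels do not say whether the samples were separate cultures, so p-values measure only the spread between these samples, which may be technical. The series title concerns activation of the Lefty1 promoter by Klf4 with Oct3/4 and Sox2. The samples include no culture that lacked the siRNA, so every value below sets siKlf4 ES cells against the reference pool and none estimates what the siRNA did.

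Imprinting marks 1 parental copy of a gene by DNA methylation laid down in the egg or the sperm, and the marked copy is kept silent or active through later divisions. Genes read from the paternal copy, such as Igf2, Dlk1, Peg3 and Mest, tend to promote growth, whereas genes read from the maternal copy, such as Cdkn1c, Phlda2, Igf2r and, in most tissues, Grb10, tend to restrain it. Igf2 encodes a growth factor of embryo and placenta, and Igf2r encodes the receptor that carries it to the lysosome for destruction. In mouse ES cells imprints can be lost in culture, and these arrays measure RNA from both copies together. They therefore give no reading of which parental copy was used.

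The probes themselves are shown because each value below rests on 1 oligonucleotide of 60 bases, and because the probes of Mest gave different answers. The last 30 bases of each are given 5′ to 3′ as deposited, and capitals mark AATAAA, the polyadenylation signal, searched on the probe strand only.
Phlda2: attttcattccaAATAAAcaatgtcacttt
Cdkn1c: aaaagagaaactagaaaatgtagaacgaag
Dlk1: tgctaccacgctatctaagaaccccttcct
Igf2: atcaatctgtgacctcctcttgagcaggga
Igf2r: gttgtatataggtggcatttacatacccaa
Peg3: caactgtcatgaatgcgcagaaacgttcgc
Plagl1: agaagaaagaaatcactgtgtaaccaagcc
Mest, brighter probe: attttatctatgggccattggatcctataa
Mest, dimmer probe: gagtatgagtctaagactgatttgcatact
Over the whole 60 bases the share of G and C ran from 25% in the Phlda2 probe to 46.7% in the Dlk1 probe, against a median of 41.7% over all 21052 gene probes. The Phlda2 probe was the member probe with AATAAA (1 of 10), a motif present in 8.14% of all gene probes.

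Each probe is given as its signal above local background, in intensity units, and as log2 of ES cells over reference, so that a value of 1 is a 2-fold higher signal in the ES cells. A probe passed where limma's adjusted p was under 0.05 and the sign was the same on both arrays. Over all 21028 probes tested, 31.6% passed as higher and 31.4% as lower (63.1% in all), so passing alone says little. A change of 2-fold or more was reached upward by 5.08% and downward by 5.19% (10.3% in all). The 162 negative control spots, blank for mouse RNA, ranged from -0.25 to 0.52 in log2 ratio. Their 95th percentile lay at 155 and 178 units in the ES channel and at 40.9 and 58.4 units in the reference channel on arrays 1 and 2, and a probe is called above the negative controls where it exceeded these limits. Of 9 measured pluripotency markers, 8 passed as higher in the ES cells, at a median log2 ratio of 4.03, and 0 as lower. All 8 measured fibroblast and feeder markers passed as lower, with a summed signal of 6103 and 7426 units in the ES cells against 86766 and 83940 in the pool. Klf4, the siRNA target, stood at 0.43 and 0.59.

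Among the growth regulators, Phlda2, Impact and Cdkn1c exceeded the pool by more than 2-fold in the siKlf4 ES cells, and Dlk1 was 7.96-fold lower. Without background correction Impact and Dlk1 stayed beyond 2-fold, at log2 ratios of 1.26 and -2.23. Phlda2 then fell to 0.96 and Cdkn1c to 0.36, so the size for Cdkn1c is uncertain. Peg3 passed as higher with an uncertain size, Igf2r was lower by a narrow margin, and Igf2 and Plagl1 did not pass. Counted as probes, 5 of 10 passed as higher, 2 as lower and 3 did not pass, beside 31.6% and 31.4% of all probes in those directions and 63.1% in either. At 2-fold the counts were 4 higher, among them the dimmer Mest probe, and 1 lower, beside 5.08% and 5.19%, or 10.3% in either direction. Of the 10 probes, 8 were above the negative controls in both channels on both arrays, against 81.1% of all probes tested. The median log2 ratio of the 10 probes was 0.39, and that of all probes was -0.01.

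**Figure D1:**
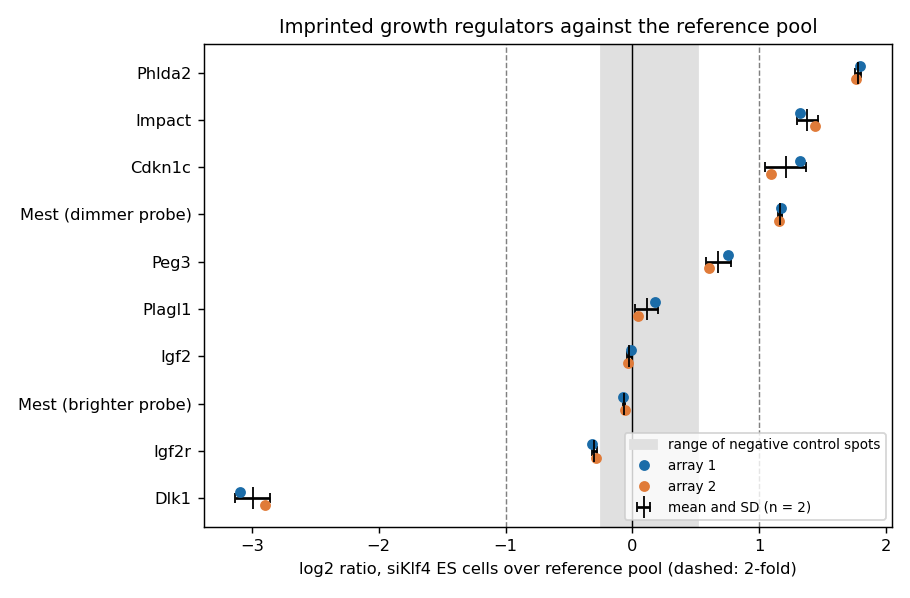
Log2 ratio of siKlf4 ES cells over the reference pool (horizontal axis) for each of the 10 probes (vertical axis), with 1 point per array, the mean as a vertical tick and the SD of 2 arrays as a bar; the grey band is the range of the negative control spots and dashed lines mark 2-fold. Phlda2 is highest at 1.78 and Dlk1 lowest at -2.99, while Igf2, Plagl1 and the brighter Mest probe lie inside the grey band.

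The maternally expressed genes are the growth-restraining side of the list. Phlda2, a small protein with a pleckstrin homology domain that limits growth of the placenta, gave 777 and 928 units in the ES cells and 195 and 220 units in the reference on arrays 1 and 2. Both channels were above the negative controls on both arrays. The log2 ratios of Phlda2 were 1.79 and 1.76, with a mean of 1.78 ± 0.025 (SD, n = 2), or 3.43-fold (limma, adjusted p = 1.80e-06). That placed it at rank 273 of 21028 probes counted from the highest ratio. Without background correction the ratio was 0.96, just under 2-fold.

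Cdkn1c encodes p57Kip2, an inhibitor of cyclin-dependent kinases that holds cells in G1. It gave 298 and 291 units in the ES cells and 54.4 and 60.0 in the reference, where it was barely above the negative controls. Its log2 ratios of 1.32 and 1.09 had a mean of 1.21 ± 0.16, or 2.31-fold (adjusted p = 3.38e-05). The gap between arrays, 0.23, was larger than that of 95.7% of all probes, although both arrays stayed above 2-fold. Its size depended on the background: the ratio was 0.36 without background correction and 2.62 when the negative control spots served as background, and it passed in each case. The related inhibitors were lower in the ES cells. Cdkn1a stood at -1.63 ± 0.051, and Cdkn1b did not rise above the negative controls in either ES sample; the reference was at least 1.78-fold higher, a bound with the ES signal raised to the negative control limit.

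Igf2r was bright in both channels, at 1588 and 1936 units in the ES cells and 2210 and 2242 in the reference. Its ratios of -0.32 and -0.29 were below 0 on each array and differed little between arrays. They had a mean of -0.30 ± 0.019, 1.23-fold lower (adjusted p = 0.00108). It lay only just outside the range of the negative control spots. In a limma test against an absolute log2 ratio of 0.5 it did not pass (adjusted p = 1). M6pr, the other receptor for mannose 6-phosphate, stood at -0.17 (adjusted p = 0.0101).

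The paternally expressed genes ran from the lowest value of the list to the second highest. Dlk1, a transmembrane relative of the Notch ligands that restrains fat cell differentiation and is released as a soluble factor, gave 443 and 616 units in the ES cells against 4040 and 4271 in the reference. The ES signal of Dlk1 was also above the negative controls on both arrays. Its log2 ratios of -3.09 and -2.90 had a mean of -2.99 ± 0.14, or 7.96-fold lower (adjusted p = 1.39e-06), and 0.471% of all probes lay lower. Without background correction the value was -2.23. Fibroblast markers were also lower in the ES cells than in the pool (8 of 8, given above). Of 6 trophectoderm markers, 4 passed as lower and 1 as higher. Of 7 markers of primitive and visceral endoderm, 4 passed as lower and 0 as higher, beside 31.4% and 31.6% of all probes. The part of any of these markers in the Dlk1 result was not tested. In a pool of 11 lines, a gene used by a few of them and a gene used evenly by all cannot be told apart, and neither can fewer cells with a transcript and less of it per cell.

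Impact, whose product inhibits the kinase Gcn2 and so eases the stress control of translation, had 4257 and 5562 units in the ES cells and 1876 and 1894 in the reference. It was well above the negative controls everywhere. Its ratios were 1.32 and 1.43, with a mean of 1.38 ± 0.081, or 2.60-fold (adjusted p = 6.23e-06). The value moved little with the processing, from 1.23 to 1.40 over 12 alternatives. Some of these change only the test or the set of probes and leave the ratio of Impact as it is. Peg3, a zinc finger protein of maternal care and growth, gave 205 and 215 units in the ES cells and 45.0 and 53.9 in the reference. The reference signal exceeded the negative control limit on array 1 only, so its ratio is uncertain. Its ratios of 0.75 and 0.61 had a mean of 0.68 ± 0.10 (adjusted p = 0.000115), with 0.17 without background correction and 1.91 with background from the negative control spots.

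Igf2 itself did not pass, and its values lay close to those of the pool. The growth factor gene gave 368 and 385 units in the ES cells and 315 and 297 in the reference, above the negative controls in both channels. Its log2 ratios of -0.01 and -0.04 had a mean of -0.02 ± 0.020 (limma, adjusted p = 0.587), inside the range of the negative control spots. Plagl1, a zinc finger factor also called Zac1 that regulates other imprinted genes, gave 110 and 102 units in the ES cells and 16.3 and 15.5 in the reference. Neither channel was above the negative controls on either array, so no fold is given for it. Its measured ratio of 0.11 (adjusted p = 0.0851) passed under 5 of the alternatives. Among these, the scanner software's signals and the authors' series table hold nearly the same ratio.

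Mest, an enzyme-like protein of the alpha/beta hydrolase fold, is the member for which the answer depended on the probe. The brighter probe, with a start listed at 1047, gave 1054 and 1350 units in the ES cells and 1231 and 1347 in the reference. Its ratios were -0.08 and -0.06, with a mean of -0.07 ± 0.011 (adjusted p = 0.157). The dimmer probe, with a start listed at 1944 for the same accession, gave 281 and 306 units in the ES cells and 57.8 and 62.4 in the reference. Its ratios were 1.17 and 1.15, with a mean of 1.16 ± 0.015, or 2.24-fold (adjusted p = 5.87e-06). Both probes repeated closely between arrays while disagreeing with each other.

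The gap between the Mest probes was 1.25 and 1.21 on arrays 1 and 2, with a mean of 1.23 ± 0.026, far beyond the spread of either probe. The gap itself was not tested. Among the 241 genes with several probes the median gap was 0.27, and 19 genes (7.88%) had a gap as large. The dimmer probe lay only narrowly above the negative controls in the reference, and its ratio was 0.34 without background correction and 2.47 with background from the negative control spots. The mean of both probes was 0.55. Whether the probes read different transcripts of Mest was not tested.

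**Figure D2:**
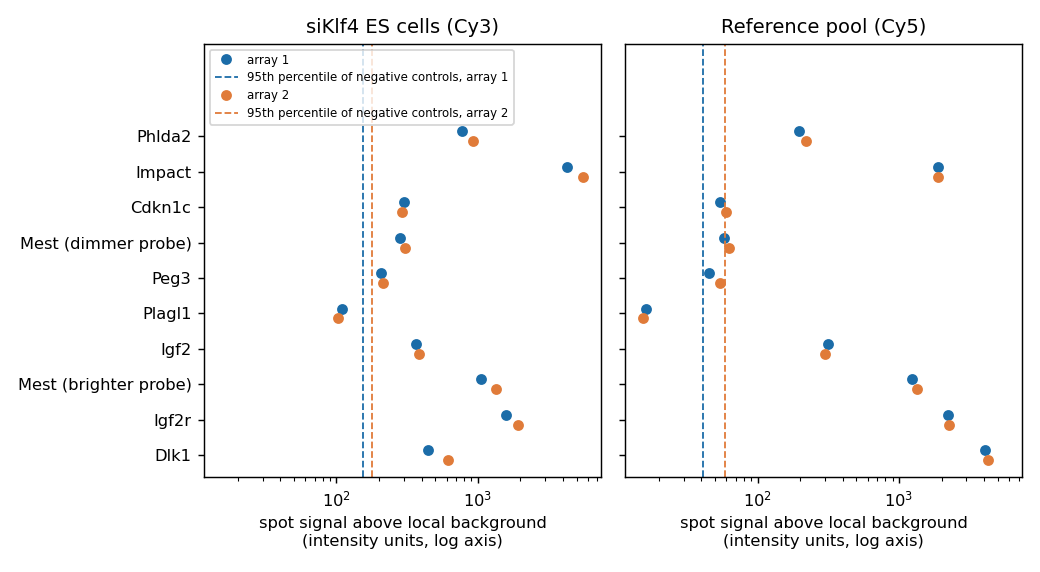
Spot signal above local background (horizontal log axis, intensity units) of the 10 probes in the ES channel (left) and the reference channel (right), with 1 point per array and dashed lines at the negative control limit of that array (95th percentile). Plagl1 lies left of the lines in both panels, and Cdkn1c, the dimmer Mest probe and Peg3 lie close to them in the reference panel.

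The background estimate was the step that moved the list most. Without background correction 1 member probe was at least 2-fold higher in place of 4, and Dlk1 was the 1 lower probe in both cases. Leaving out the correction moved the ratios of Phlda2, Cdkn1c, Dlk1 and the dimmer Mest probe by more than 1.5-fold. Using the negative control spots as background moved those of Cdkn1c, Peg3 and the dimmer Mest probe by as much, whereas Impact, Igf2 and Igf2r moved little under either. No member probe changed sign under a different background correction or scaling.

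**Figure D3:**
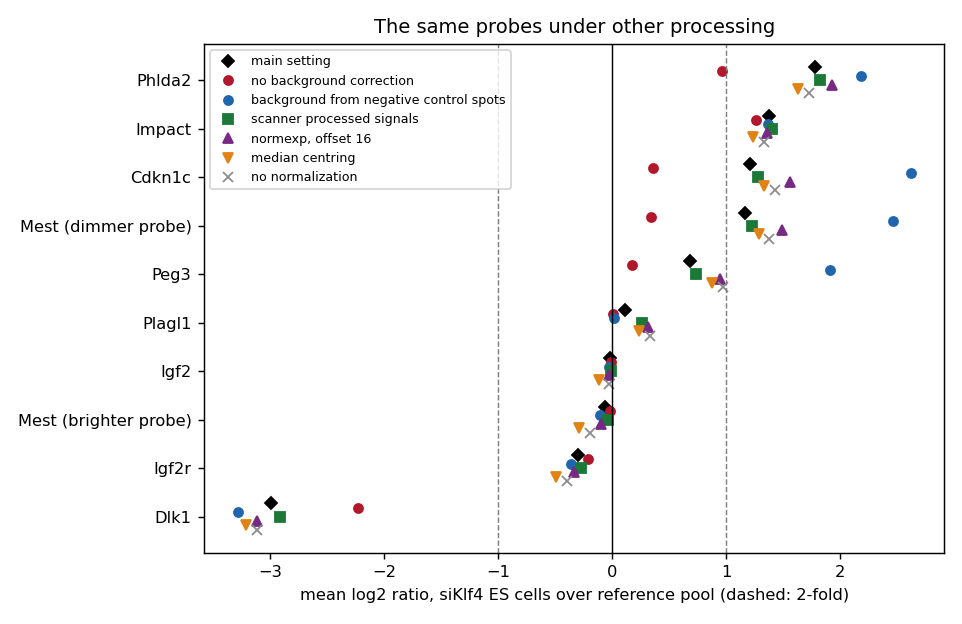
Mean log2 ratio (horizontal axis) of each of the 10 probes (vertical axis) under 7 processing settings, 1 symbol per setting, with dashed lines at 2-fold. Cdkn1c spreads from 0.36 to 2.62 and Impact only from 1.23 to 1.40, and every symbol of Dlk1 lies below -2.

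The members sit among other imprinted genes, and 3 of them share a neighbourhood. In the RefSeq gene order (GRCm38.p6, used for names and neighbours only), Igf2, Cdkn1c and Phlda2 belong to a stretch of 52 annotated genes from Tnni2 past Dhcr7, of which 22 had a probe. This stretch was chosen after values were seen. Cdkn1c and Phlda2 were the 2 genes in it that were at least 2-fold higher, and 0 were 2-fold lower. Of all probes, 5.08% and 5.19% were. Slc22a18, the gene with a probe that lies between them and a transporter also expressed from the maternal copy, stood at 0.57 and 0.53 (mean 0.55 ± 0.028, adjusted p = 9.72e-05). That mean lay only just above the highest negative control spot, at 0.52. Cars, a tRNA synthetase gene on the far side of Phlda2, stood at 0.87 ± 0.11.

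Other genes in this stretch went the other way or stayed near the pool. Nap1l4, the next gene with a probe after Phlda2, was at 0.13. Osbpl5, of the oxysterol-binding family, was at -0.87 ± 0.087 and Cd81, a tetraspanin of the cell surface, at -0.75 ± 0.090. Kcnq1, the potassium channel gene that gives the domain its name, was at -0.17, and Ins2 and Th, next to Igf2, were at 0.13 and 0.06. In all, 7 of the 22 passed as higher and 8 as lower, at a median of 0.00, beside 31.6% and 31.4% of all probes.

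**Figure D4:**
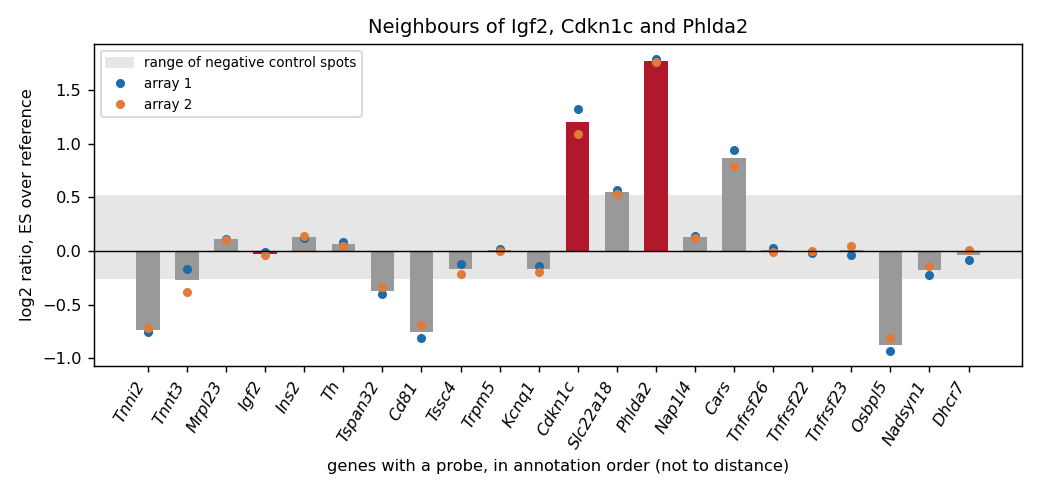
Log2 ratio of siKlf4 ES cells over the reference pool (vertical axis) for the 22 genes with a probe around Igf2, Cdkn1c and Phlda2 (horizontal axis, in annotation order and not to distance), with bars for the mean, red for members of the list, points for each array and a grey band for the range of the negative control spots. Cdkn1c at 1.21 and Phlda2 at 1.78 stand above 1, and Osbpl5 at -0.87 is the lowest bar.

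A list of genomic neighbours of the members, which does not hold every neighbour, named 54 genes, and 34 had a probe. Of these, 13 passed as higher, 9 as lower and 12 did not pass, beside 31.6% and 31.4% of all probes. At 2-fold the counts were 2 higher and 0 lower, beside 5.08% and 5.19% of all probes. The median was 0.04, close to that of all probes. The highest was Cobl, an actin nucleator beside Grb10, at 1.39 ± 0.12 or 2.61-fold. Ltv1, a ribosome assembly factor near Plagl1, was at 1.01 ± 0.0016.

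Other genes described as imprinted in some tissue, several of them in placenta alone, were likewise spread around the pool. Of 60 listed, 41 had a probe, and 11 passed as higher, 17 as lower and 13 did not pass, beside the same shares of all probes, with a median of -0.01. At 2-fold 2 were higher, Gab1, a docking protein of receptor tyrosine kinases, at 1.47 ± 0.0051 and Snrpn, a splicing protein gene of the Prader-Willi region, at 1.08 ± 0.094. Another 4 were at least 2-fold lower. Of all probes, 5.08% were 2-fold higher and 5.19% were 2-fold lower. The matrix proteoglycan gene Dcn, which is also in the fibroblast marker list, was lowest at -4.64 ± 0.019, or 25.0-fold lower, and the paraoxonase gene Pon2 stood at -1.65 ± 0.013. Pon3 was not above the negative controls in the ES cells, which puts the reference at least 4.06-fold higher, and Gatm, of creatine synthesis, was at -1.14 ± 0.12. Snrpn and Gatm were named after their values were seen. Genes read from the paternal copy lay on both sides of the pool. Besides Snrpn, Nap1l5 and Zrsr1 passed as higher at 0.34 and 0.17, Peg12, Sgce and Nnat passed as lower at -0.49, -0.27 and -0.17, and Ndn did not pass at 0.11. Nap1l5, Zrsr1, Nnat and Ndn lay inside the range of the negative control spots (-0.25 to 0.52), and Sgce only just outside it. Not every gene of the list read from the paternal copy is named here.

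The IGF and insulin axis surrounds Igf2 and Igf2r. Of 24 genes listed, 18 had a probe, at a median of -0.02. Of these, 5 passed as higher, 7 as lower and 6 did not pass, beside 31.6% and 31.4% of all probes. A 2-fold difference was reached by 1 upward and 3 downward, beside 5.08% and 5.19%. The 4 genes furthest from the pool are named as IGF binding proteins. Classical members of that group hold IGFs in the fluid around cells and gate their access to receptors. Igfbp2 was 3.96-fold higher at 1.99 ± 0.075 (4135 and 4949 units against 1113 and 1209). Igfbp7, Igfbp4 and Igfbp6 were lower, at -3.16 ± 0.058, -2.60 ± 0.044 and -2.38 ± 0.059, or 8.91-fold, 6.06-fold and 5.22-fold. Other binding proteins lay nearer the pool, and Igfbp1 did not pass at -0.03. Igfbp5 passed as lower at a measured ratio of -0.33. Its ES signal was not above the negative controls on either array, so no fold is given for it. The growth factor Igf1 was at -0.59 ± 0.010 and the insulin receptor gene Insr at 0.06, not passed. Igf2bp3, an RNA-binding protein of Igf2 mRNA, was at 0.99 ± 0.064, just under 2-fold.

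Relatives of the members by family were mostly lower in the ES cells. Of 9 with a probe, 1 passed as higher and 8 as lower, at a median of -0.59, beside 31.6% and 31.4% of all probes. At 2-fold 1 was higher and 3 were lower, beside 5.08% and 5.19%. The 3 include Cdkn1b, for which the values bound the fold only at 1.78 or more. No difference between a member and its relatives was tested. Phlda1, which shares the pleckstrin homology domain of Phlda2, was 6.22-fold lower at -2.64 ± 0.042, and Phlda3 was at -0.70 ± 0.058. Grb7, an adapter of the Grb10 family, was 4.44-fold higher at 2.15 ± 0.079 and its relative Grb14 was at -0.33 ± 0.20. Plag1, the family partner of Plagl1, was at -0.22 ± 0.13.

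Genes that lay down and keep imprints were mostly higher in the ES cells. Of 23 listed, 17 had a probe, and 14 passed as higher, 2 as lower and 1 did not pass, beside 31.6% and 31.4% of all probes. A level 2-fold above the pool was reached by 8, beside 5.08% of all probes, and the median was 0.99. Dppa3, which shields imprints from demethylation in the early embryo, was 12.6-fold higher at 3.66 ± 0.027. The methyltransferase gene Dnmt3b was at 3.13 ± 0.21, its cofactor Dnmt3l at 2.58 ± 0.060 and the Polycomb gene Eed at 2.07 ± 0.18. Trim28, the corepressor that guards imprinted regions, was at 1.52 ± 0.17, and the maintenance methyltransferase Dnmt1 at 0.49 ± 0.016. This list and the ES cell markers both stood above the pool, and a link to the members was not tested.

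**Figure D5:**
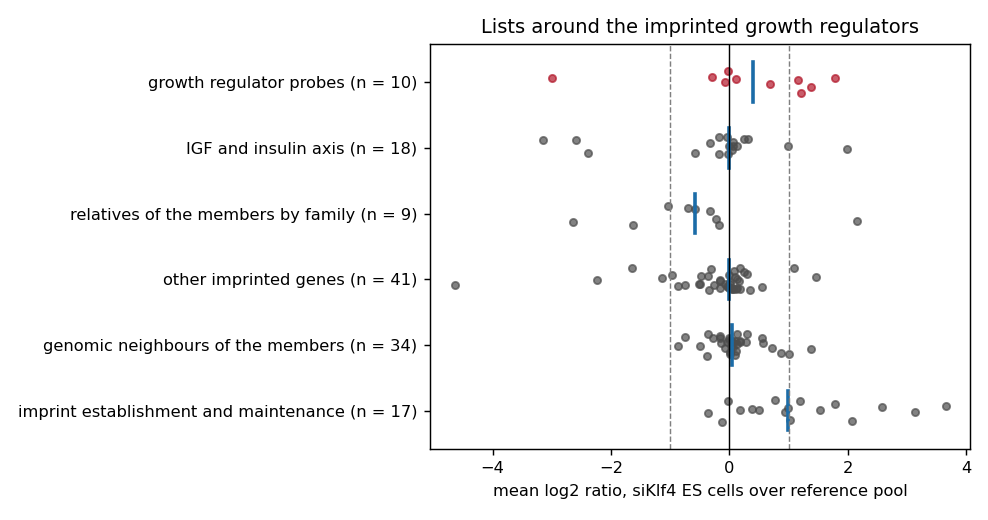
Mean log2 ratio of siKlf4 ES cells over the reference pool (horizontal axis) for the 10 growth regulator probes (red) and for the measured genes of 5 lists around them (grey), 1 point per probe or gene, with the median of each row as a blue bar and dashed lines at 2-fold. The row of imprint establishment and maintenance has a median of 0.99, and the rows of neighbours and of other imprinted genes centre on 0.

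The promoter windows of the members ran from 250 bases before to 50 after each start in RefSeq (GRCm38.p6). They were described because DNA methylation falls on CpG pairs, and whether these windows carry an imprint was not tested. Windows were found for 8 of the 10 genes, 14 in all. They held 2 to 45 CpG pairs, with a median of 15.5 against 7 over all 32851 windows. Their median share of G and C was 62.3% against 52.7%, and some genes gave several windows. The motif counts below were not adjusted for this and not tested. TGCCGC, the motif bound by the imprint guardian Zfp57 when methylated, was searched on both strands and found in 5 of 14 windows, those of Mest (2, which overlap each other), Igf2, Plagl1 and Grb10, against 11.6% of all windows. GGGTG, part of the GT-rich boxes bound by Klf factors, was in 9 of 14 against 57.5% of all windows, and GGGGCCCC, a site of Plagl1, in 1 of 14, that of Peg3, against 1.08%. The windows of Phlda2 and Dlk1, the highest and the lowest member by ratio, are shown with all matches of the 3 motifs in capitals.
Phlda2, chr7:143502475-143502774, minus strand: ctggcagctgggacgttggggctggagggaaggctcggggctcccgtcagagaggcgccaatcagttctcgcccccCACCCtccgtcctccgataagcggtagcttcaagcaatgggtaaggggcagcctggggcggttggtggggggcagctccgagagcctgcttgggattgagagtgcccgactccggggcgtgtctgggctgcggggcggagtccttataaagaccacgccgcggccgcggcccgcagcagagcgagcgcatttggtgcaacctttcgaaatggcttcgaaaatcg
Dlk1, chr12:109452573-109452872, plus strand: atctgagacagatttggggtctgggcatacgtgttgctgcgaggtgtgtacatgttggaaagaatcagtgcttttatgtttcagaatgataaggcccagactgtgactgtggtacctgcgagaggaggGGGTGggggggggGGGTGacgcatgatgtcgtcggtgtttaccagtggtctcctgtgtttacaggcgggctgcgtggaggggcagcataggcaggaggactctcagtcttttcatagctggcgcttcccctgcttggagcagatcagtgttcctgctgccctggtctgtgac
The Phlda2 window held 26 CpG pairs and 1 GGGTG match, read on the opposite strand as CACCC, and the Dlk1 window held 9 CpG pairs and 2 matches. A match is a string of letters and shows no binding.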

How the data were processed

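The scanner files are output of Agilent Feature Extraction A.7.5.1, per the file headers. Their deposited intensity values are mean spot signals, local background signals, and processed signals after background subtraction and LOWESS dye normalization. The deposited log10 ratio is red over green, checked against the processed signals. The authors' series table is on a log10 scale (medians 2.92 and 2.92); how it was made, the labels do not record. Read as the mean log10 red processed signal minus the log10 ratio, it gave the scanner software's ratios.

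Mean signals were corrected by normexp on the local background median (offset 50) and normalised by loess within each array, control spots at weight 0, with limma 3.58.1 in R 4.3.3. Spots flagged as outliers were left out (24 probes). Log2 ratios of ES cells over reference were tested against 0 with lmFit and eBayes (1 residual and 4.24 prior degrees of freedom). The p-values were Benjamini-Hochberg adjusted over 21028 probes. The test was also run on simulated normal values with the spread of these arrays. Those values hold no dye or background effect, so the simulation cannot check for one. The reference enters as the pool and is not a group. Dyes were not swapped, so a dye effect is part of each ratio, and the number of arrays limits the precision. No saturated spot occurred among the member probes.

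Probes were named through RefSeq accessions: 10422 received 1 symbol and 10630 none. For lists the brightest probe stands for a gene. Members and lists were chosen with earlier results of these data known. Members were all accounted for, with up to 4 genes per list by absolute ratio. List genes outside that rule were named after their values were seen. Klf4 was named as the siRNA target, and its ratio to the pool cannot show whether the siRNA lowered it. Of the Impact gene no sequence is shown.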

Additional observations from a re-analysis of the deposited data

How the results depend on the processing

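No paired analysis was possible because the samples form 1 group, and its replicate numbers have no partner in a different group. Without background correction the number of member probes at least 2-fold higher was 1 in place of 4. The genes of the lists at least 2-fold higher and lower were then 8 and 6 in place of 14 and 10. The 10 include Cdkn1b, for which the bound was 1.78-fold. In the test against an absolute log2 ratio of 0.5, 1 member probe passed as lower in place of 2, since Igf2r was lost. With the probes of a gene averaged, the ratio of Mest turned from -0.07 to 0.55. Its brighter probe passed as lower, at -0.29, when arrays were centred on their medians. With median centring in place of loess the median difference between arrays over the member probes was 0.16 in place of 0.08; the cause was not tested. Leaving out an array left each member ratio with its sign, as a value with no test. Probes near the negative controls, Plagl1, Peg3, Cdkn1c and the dimmer Mest probe, are limited by signal over background.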
